A study of Mus musculus with 36 samples.

Results

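The members are the mouse genes whose symbol starts with Slc25a, without Slc25a20, measured in liver after acetaminophen. They were chosen by name: each symbol with a probe set of its own on the array was taken, which gave 43 of the 18193 genes with such a probe set. Each gene was represented by its probe set with the highest mean signal, and it was kept if that signal lay above 30.8, the median of all values, on at least 3 of the 36 arrays. This left 41 carriers among 14115 genes tested. Slc25a54 lay above 30.8 on 0 arrays and Slc25a18 on 2, and neither was tested. Slc25a31 lay just inside with 3 arrays, all of them DBA livers, and Slc25a2 and Slc25a14 followed with 4 arrays each.

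SLC25 proteins are carriers that fold into a barrel of membrane helices and move metabolites across the inner mitochondrial membrane, often in exchange for another metabolite. They connect the matrix with the cytosol: ADP and ATP, phosphate, citrate, malate, aspartate, ornithine, coenzyme A, nucleotides, glutathione and iron all pass through members of the family. A few members work elsewhere, such as Slc25a17 in the peroxisome and Slc25a46 in the outer mitochondrial membrane. In hepatocytes they serve the urea cycle, gluconeogenesis and fatty acid synthesis, and acetaminophen injury in this cell type involves mitochondrial glutathione loss and mitochondrial damage.

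Liver RNA came from mice of the strains SJL, SMJ, DBA and C57, and the series names SJL as resistant to acetaminophen injury and the other 3 as sensitive. Mice of every group had been fasted overnight, and the 0 h livers were taken before the dose. The 3 h and 6 h livers followed an intraperitoneal dose of 300 mg/kg acetaminophen. Each of the 12 groups held 3 mice with 1 array each. The labels give no age or sex, and no undosed livers at 3 h or 6 h were analysed here, so time after the dose cannot be told apart from time of day or length of the fast.

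Signals of arrays within a group correlated at 0.916 to 0.964 over the tested genes. The 6 hepatocyte markers summed to between 68908 and 145970 on every array and were all above 30.8 on all of them. Their median sum was 100830 at 6 h, against 81500 at 0 h, and all 6 were called higher at 6 h, with a median log2 difference of 0.38. Of 4 endothelial markers, 3 were called higher at 6 h, with a median of 0.51. Neutrophil markers summed to a median of 965 at 6 h, against 251 at 0 h. Markers of pancreas ranged from 164.5 to 54307 and those of skeletal muscle from 28.9 to 2810 between livers. The median ratio of the 3' to the 5' actin probe sets was 1.40 at 6 h, against 1.67 at 0 h. The part of these shifts in the results below was not tested unless a value is given. In whole tissue, fewer cells of a type and less RNA per cell cannot be told apart. Signals of different probe sets are on scales of their own, so levels are compared between mice and never between genes.

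By 6 h, 19 of the 41 tested carriers had changed in the mean of the 4 strains, 11 upward and 8 downward. The fall was steepest for Slc25a42, the coenzyme A carrier, which fell by 1.07 on the log2 scale. The clearest rise was that of Slc25a25, an ATP-Mg/phosphate carrier, at 0.88 on the log2 scale, or 1.84-fold. The ADP/ATP carriers Slc25a4 and Slc25a5, the phosphate carrier Slc25a3 and the glutathione importer Slc25a39 also rose, by 0.23 to 0.53 on the log2 scale. The citrin gene Slc25a13, the oxoglutarate/malate carrier Slc25a11 and the branched-chain amino acid carrier Slc25a44 fell, by changes between −0.22 and −0.39. A change of a gene was called where the Benjamini-Hochberg adjusted p of limma's moderated test over 14115 genes was below 0.05.

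The called carriers made up 46.3% of those tested, and 33.1% of all genes were called in the same comparison. Of all genes, 12.7% were called higher and 20.3% lower, or 1799 and 2868 genes. The median change was −0.07 over the carriers and −0.05 over all genes on the log2 scale. With quantile normalization in place of the deposited scale, 8 carriers were called higher and 10 lower. Of all genes, 1731 were then called higher and 2705 lower. The carriers Slc25a3, Slc25a5, Slc25a39 and Slc25a47 were no longer called. On the deposited scale these 4 had changes of 0.23 to 0.40, and the 6 hepatocyte markers had changes of 0.27 to 0.40. With quantile normalization 0 of the 6 hepatocyte markers were called and their median was 0.02, and all 4 endothelial markers were called higher, with a median of 0.56. The part of the hepatocyte shift in these rises was not tested. With scaling to the 75th percentile the carrier counts were 12 higher and 7 lower. Those of all genes were 2123 higher and 2347 lower. With the muscle, pancreas or erythroid marker sum as a covariate, added after seeing the data, 16, 18 and 17 carriers were called in place of 19, and those lost were among Slc25a4, Slc25a10 and Slc25a26.

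At 3 h only 4 carriers were called, 9.76% of those tested, when 7.26% of all genes were, 3.24% higher and 4.02% lower. Slc25a25 and the liver-enriched carrier Slc25a47 were higher, and Slc25a42 and the orphan carrier Slc25a34 were lower. The 6 h comparison shares the 0 h livers, and its values for these 4 stand beside those of 3 h below. Without mouse SJL1, SMJ57 or DBA114, all taken at 0 h, 2 carriers were called at 3 h, as was the case with the erythroid sum as a covariate. Between 3 h and 6 h, 9 carriers differed, or 22.0% of those tested, against 16.7% of all genes, of which 6.94% were higher and 9.77% lower. Slc25a4, Slc25a24, Slc25a30 and Slc25a37 were higher at 6 h than at 3 h, and Slc25a11, Slc25a42, Slc25a44, Slc25a46 and Slc25a51 were lower. Leaving out 1 mouse ended 4 of these calls: that of Slc25a11 for any of 15 mice, of Slc25a24 for any of 23, of Slc25a51 for SJL40, DBA166, C57230 or C57233, and of Slc25a42 for SJL40 or SJL48. The largest of these steps were 0.83 for Slc25a24 (adjusted p = 0.0454) and 0.80 for Slc25a30 (adjusted p = 0.0017). In no time comparison of the mean were 20 of the 41 called.

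**Figure D1:**
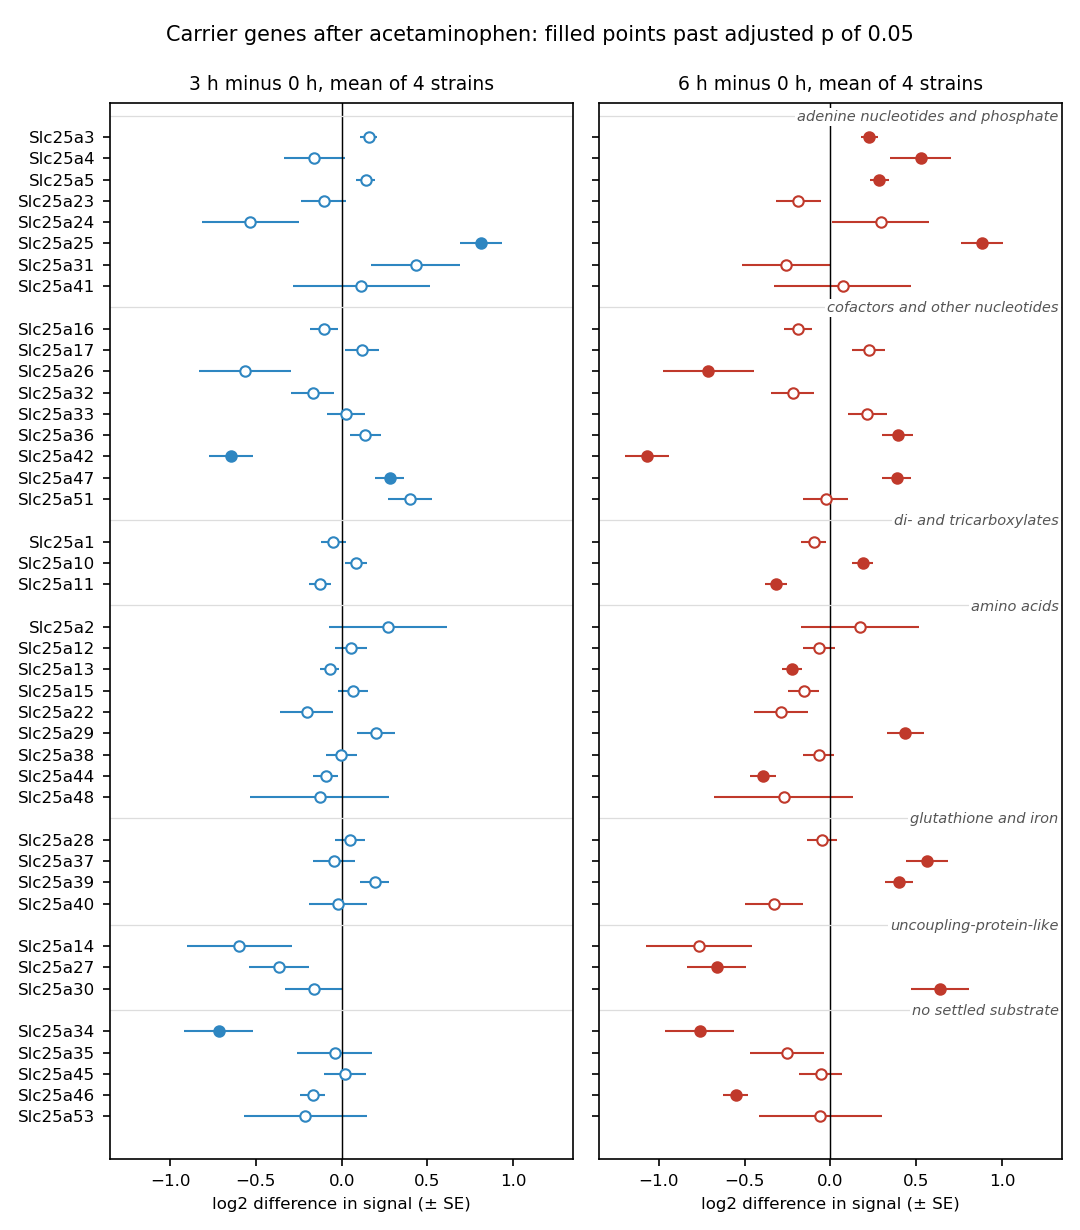
Log2 differences in signal from 0 h, as the mean of the 4 strains, for the 41 tested carriers at 3 h (left) and 6 h (right). Points are the fitted differences, bars their standard errors, and filled points have an adjusted p below 0.05. At 3 h 4 points are filled and at 6 h 19, with Slc25a42 farthest left at −1.07 and Slc25a25 farthest right at 0.88.

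The stretches of DNA before the annotated starts of 3 carriers are shown because Slc25a25 and Slc25a42 changed most, in opposite directions, and Slc25a33 changed in opposite directions between strains. They are the 250 bases before a start, from RefSeq on the GRCm38.p6 build, and all lie on the minus strand. Slc25a25 has 3 annotated starts in the table, of which the 2 with a motif are given. Capitals mark motif matches on either strand.
Slc25a25, chr2:32451471-32451720: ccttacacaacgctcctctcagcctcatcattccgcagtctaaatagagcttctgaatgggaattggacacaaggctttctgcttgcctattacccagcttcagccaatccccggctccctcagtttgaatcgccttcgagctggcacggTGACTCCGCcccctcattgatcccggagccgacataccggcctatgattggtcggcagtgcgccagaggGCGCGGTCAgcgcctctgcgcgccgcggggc
Slc25a25, chr2:32424067-32424316: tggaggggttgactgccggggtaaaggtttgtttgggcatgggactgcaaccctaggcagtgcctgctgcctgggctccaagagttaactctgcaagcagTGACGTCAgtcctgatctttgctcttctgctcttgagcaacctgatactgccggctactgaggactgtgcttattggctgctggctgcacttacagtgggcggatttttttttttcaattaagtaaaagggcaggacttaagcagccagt
Slc25a33, chr4:149774268-149774517: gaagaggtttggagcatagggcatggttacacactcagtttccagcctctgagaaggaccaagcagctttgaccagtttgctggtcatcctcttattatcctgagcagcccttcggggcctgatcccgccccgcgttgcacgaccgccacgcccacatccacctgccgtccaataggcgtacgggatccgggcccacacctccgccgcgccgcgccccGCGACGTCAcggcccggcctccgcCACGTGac
Slc25a42, chr8:70212282-70212531: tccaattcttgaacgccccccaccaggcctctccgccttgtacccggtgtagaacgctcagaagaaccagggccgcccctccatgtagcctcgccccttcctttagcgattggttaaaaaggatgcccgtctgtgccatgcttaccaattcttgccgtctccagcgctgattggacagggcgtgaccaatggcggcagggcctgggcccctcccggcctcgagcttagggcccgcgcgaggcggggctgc
The capitals are TGACNNNGC, the core of the antioxidant response element, in the Slc25a25 window listed on top and in that of Slc25a33, TGACGTCA, the cAMP response element, in the other Slc25a25 window, and CACGTG, the E-box, in that of Slc25a33.

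A set of 6 motifs was searched on both strands of these windows and of all 32851 windows in the table. TGACNNNGC was present in 9 of 42 windows of the carriers, or 21.4%, and in 10.2% of all windows. Windows of 1 gene can overlap and hold 1 site more than once, and these 9 windows belonged to 7 genes. CACGTG was present in 8 windows of the carriers, or 19%, against 6.02% of all, and these windows belonged to 7 genes. TGACGTCA was in 4.76% of the carriers' windows and 1.55% of all. CCGGAAG, bound by ETS factors such as GABPA, was in 11.9% and 6.91%. The palindrome bound by NRF1 and TNAAGGTCA, bound by ESRRA, were in 0 of the 42 windows, against 0.782% and 1.14% of all windows. The table held windows of 33 of the 43 genes, and a match says only that the letters are there. In the carriers' windows 0 pairs of matches of different motifs overlapped.

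Among the 8 tested carriers of adenine nucleotides and phosphate, 4 rose at 6 h and 0 fell. These counts, and those of the other roles, stand beside 12.7% of all genes called higher and 20.3% called lower. Of the 4, Slc25a3 and Slc25a5 had values of −0.01 with quantile normalization, and Slc25a4 was not called with the muscle sum as a covariate. Slc25a25 takes up ATP-Mg in exchange for phosphate and is regulated by calcium. At 0 h, its signals were 1648, 2184 and 1507 for SJL, 2124, 1542 and 1287 for SMJ, 905, 885 and 929 for DBA, and 803, 1344 and 939.6 for C57. At 3 h, Slc25a25 stood at 897, 1482 and 2065 for SJL, 2569, 1942 and 1886 for SMJ, 3687, 3514 and 3936 for DBA, and 2063, 2306 and 2436 for C57. At 6 h, the values were 2348, 1375 and 1432 for SJL, 1983, 1751 and 2435 for SMJ, 2999, 3174 and 3766 for DBA, and 2536, 3045 and 2487 for C57. All dosed DBA and C57 livers lay above all 0 h livers of their strain at both times, and the SJL and SMJ groups overlapped with their 0 h livers. The mean change was 0.81 at 3 h (SE 0.12, adjusted p = 5.96e-05) and 0.88 at 6 h (SE 0.12, adjusted p = 2.69e-06). Of the gene's 2 dimmer probe sets, 1 was called higher at 6 h as well, by 0.51, and the other had a value of 0.20 that did not pass the test.

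Slc25a5 and Slc25a4 exchange ADP for ATP, Slc25a5 in most tissues and Slc25a4 mainly in muscle and heart. Slc25a5 signals at 0 h were 8355, 10538 and 8543 for SJL, 7949, 7356 and 7643 for SMJ, 8768, 7334 and 7963 for DBA, and 7328, 7352 and 7915 for C57. At 3 h, Slc25a5 had 7949.7, 8152 and 9232 for SJL, 10355, 8003 and 10660 for SMJ, 8714, 8944 and 11013 for DBA, and 8116, 7828 and 8082 for C57. By 6 h, Slc25a5 had 8984, 8375 and 10146 for SJL, 11189, 10026 and 11871 for SMJ, 9885, 10172 and 9578 for DBA, and 9440.5, 8936 and 9611 for C57. Each 6 h liver of SMJ, DBA and C57 lay above each 0 h liver of its strain, and the SJL groups overlapped. The mean change at 6 h was 0.29 (SE 0.06, adjusted p = 0.000324), and with quantile normalization it was −0.01. The probe set can also bind related transcripts, so its signal may include a near-identical copy. Other probe sets of Slc25a5 were called higher at 6 h, by 0.33, 0.26, 0.29 and 0.22. The rest had values of 0.23, −0.03 and −0.02 that did not pass the test, and that at 0.23 alone is not of this kind.

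Slc25a3, which brings phosphate into the matrix, rose by 0.23 at 6 h (SE 0.05, adjusted p = 0.000701), and with quantile normalization the value was −0.01. Its 6 h signals lay above all 0 h signals of the strain in 3 of 4 strains.

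Slc25a4 rose by 0.53 at 6 h (SE 0.18, adjusted p = 0.0233) and by 0.69 between 3 h and 6 h (adjusted p = 0.00817). SMJ livers had Slc25a4 signals of 445, 269 and 396.7 at 6 h, against 362, 155 and 121 at 0 h. The same livers had summed skeletal muscle marker signals of 2483, 1175 and 2080.2 at 6 h, against 2810, 849.6 and 80.2 at 0 h, so the liver with the highest Slc25a4 at 0 h was also the one with the highest muscle sum. The muscle list held 4 markers, all above 30.8 on some arrays. With the log2 of that sum as a covariate the 6 h change was 0.24 (adjusted p = 0.16) and the step from 3 h was 0.29 (adjusted p = 0.184). Without mouse SMJ58 at 0 h the 6 h change was 0.45 (adjusted p = 0.0545).

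**Figure D2:**
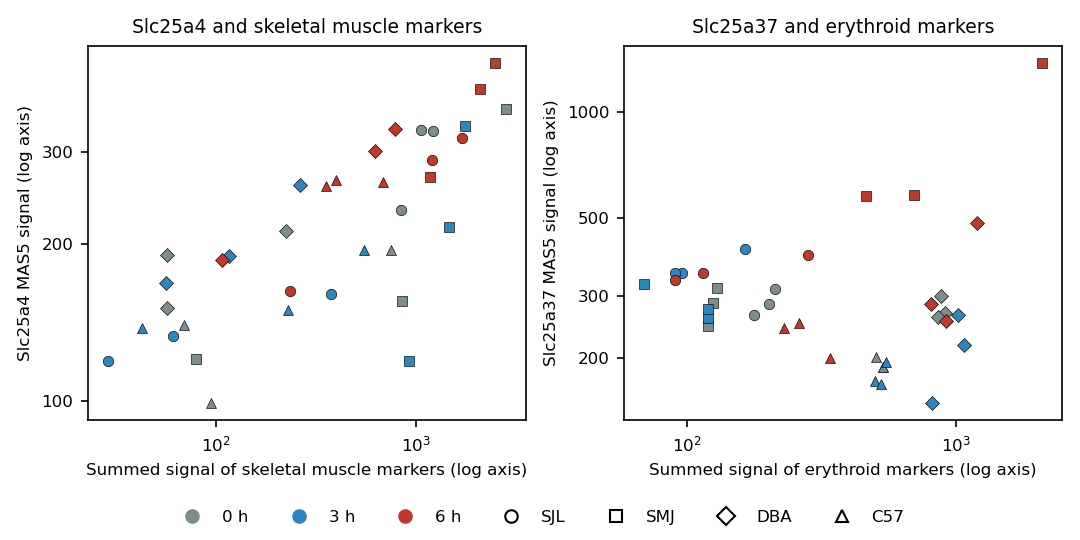
Signal of Slc25a4 against the summed skeletal muscle markers (left) and of Slc25a37 against the summed erythroid markers (right), 1 point per mouse, on log axes. Colour gives the time and shape the strain. The 3 SMJ livers at 6 h hold the highest Slc25a37 signals, and the brightest of them, at 1378, has the highest erythroid sum, 2094.

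The other 4 carriers of this role did not pass the test at 3 h or 6 h in the mean. Slc25a24, an ATP-Mg/phosphate carrier, was 0.83 higher at 6 h than at 3 h, with adjusted p up to 0.0953 when 1 of 23 mice was left out. Its SMJ signals were 44.6, 32.5 and 38.8 at 0 h, 12.2, 56.5 and 48.2 at 3 h, and 51.5, 110.1 and 119 at 6 h. Slc25a23 and Slc25a41, of the same kind, had log2 differences of −0.19 and 0.07 at 6 h that did not pass the test.

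Of the 9 tested carriers of cofactors and nucleotides other than adenine nucleotides, 2 rose and 2 fell at 6 h. The 2 that rose were Slc25a36 and Slc25a47, and Slc25a47 was placed in this role although its cargo is debated. Slc25a42 imports coenzyme A, which fatty acid oxidation and the citrate cycle need inside the matrix. At 0 h, Slc25a42 signals were 1420.5, 933 and 1239.5 for SJL, 665, 1269 and 1497 for SMJ, 1189.5, 1487 and 1079 for DBA, and 1558, 1382 and 968 for C57. At 3 h, Slc25a42 had 415, 741 and 603 for SJL, 782, 782 and 586 for SMJ, 859, 716 and 837 for DBA, and 785, 1237 and 1149 for C57. At 6 h, Slc25a42 stood at 709.6, 622 and 468 for SJL, 405.0, 377.1 and 431 for SMJ, 607, 776 and 809 for DBA, and 532, 578 and 708 for C57. In each of the 4 strains all 6 h livers lay below all 0 h livers, and at 3 h this held for SJL and DBA. The SMJ and C57 livers at 3 h overlapped with those at 0 h, and of the single strains SJL alone was called lower at 3 h. That SJL call was lost without mouse SJL1 (adjusted p = 0.0578) or SJL39 (adjusted p = 0.0611). The mean change was −0.64 at 3 h (SE 0.13, adjusted p = 0.00178) and −1.07 at 6 h (SE 0.13, adjusted p = 3.56e-07). The further step between 3 h and 6 h, −0.42, was called (adjusted p = 0.0243), with adjusted p of 0.0501 without mouse SJL40 at 3 h and 0.0525 without mouse SJL48 at 6 h.

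Slc25a47 is found mainly in liver, and its cargo is still debated. At 0 h, Slc25a47 signals were 9080.2, 12893 and 9214 for SJL, 11382, 9463 and 9362 for SMJ, 9889, 9666 and 9984 for DBA, and 10694, 10290 and 12634 for C57. At 3 h, they were 8753, 11124 and 9615 for SJL, 17042, 11531 and 12280 for SMJ, 13234, 13687 and 16955 for DBA, and 14202, 12019 and 12407 for C57. At 6 h, Slc25a47 had 13720, 11281 and 15976 for SJL, 9717, 10571 and 13680 for SMJ, 15317, 16534 and 14734 for DBA, and 13888, 12664 and 15755 for C57. DBA livers at both times, SMJ livers at 3 h and C57 livers at 6 h lay above all 0 h livers of their strain, by a narrow margin in C57. The change was 0.28 at 3 h (SE 0.08, adjusted p = 0.0368) and 0.39 at 6 h (SE 0.08, adjusted p = 0.000593). With quantile normalization the 6 h change was 0.05 (adjusted p = 0.564), and leaving out any of 13 mice ended the 3 h call.

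Slc25a36, a pyrimidine nucleotide carrier, rose by 0.39 at 6 h (adjusted p = 0.00125). Its C57 signals were 104, 103.5 and 125 at 6 h, against 69.5, 66.4 and 67.9 at 0 h, without overlap. Slc25a26, which brings S-adenosylmethionine into the matrix, fell by 0.71 (SE 0.27, adjusted p = 0.0397), and leaving out any of 15 mice ended that call. Its DBA signals were 47.5, 9.61 and 16.7 at 6 h, against 60.3, 72.2 and 64.4 at 0 h, so that some livers lay below 30.8. Slc25a16 and Slc25a17, with coenzyme A and peroxisomal cofactors as cargo, had log2 differences of −0.19 and 0.22 at 6 h that did not pass the test.

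Of the 3 carriers of di- and tricarboxylates, Slc25a10 rose and Slc25a11 fell at 6 h. Slc25a11 exchanges oxoglutarate for malate in the malate-aspartate shuttle. At 0 h, Slc25a11 signals were 926, 1042 and 846 for SJL, 639.6, 753 and 748 for SMJ, 945, 805 and 763 for DBA, and 817, 919 and 751 for C57. At 3 h, Slc25a11 had 718, 765 and 775 for SJL, 727, 649 and 708 for SMJ, 796, 723 and 850.0 for DBA, and 740.5, 798 and 813 for C57. At 6 h, Slc25a11 had 844, 613 and 685 for SJL, 472, 472 and 484 for SMJ, 749.6, 544 and 721 for DBA, and 917, 798 and 827 for C57. The SJL livers at both times and the SMJ and DBA livers at 6 h lay below all 0 h livers of their strain, in SJL at 6 h by a narrow margin, and the C57 groups overlapped. The mean change at 6 h was −0.32 (SE 0.06, adjusted p = 0.000265).

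Slc25a10, the dicarboxylate carrier, rose by 0.19 at 6 h (SE 0.06, adjusted p = 0.0232), and its adjusted p was 0.05 without mouse SJL44. In C57 the 6 h signals were 1765, 1729.9 and 1576, against 1080.5, 1276 and 964 at 0 h, and that change of 0.62 was called (adjusted p = 0.00193). Slc25a1, the citrate carrier that feeds fatty acid synthesis, had a log2 difference of −0.10 at 6 h that did not pass the test (adjusted p = 0.338).

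Of the 9 tested carriers of amino acids and related cargo, 1 rose and 2 fell at 6 h. Slc25a44 carries branched-chain amino acids, as shown in brown fat of mice. At 0 h, Slc25a44 signals were 323, 292 and 314 for SJL, 321, 372 and 371 for SMJ, 239.5, 278 and 225 for DBA, and 367, 385.9 and 378.8 for C57. At 3 h, Slc25a44 had 293, 451 and 254 for SJL, 367, 334 and 287 for SMJ, 229.9, 224 and 225 for DBA, and 297, 349.5 and 338 for C57. At 6 h, Slc25a44 had 280.0, 224 and 246 for SJL, 206, 209.8 and 234 for SMJ, 189, 244 and 201 for DBA, and 276, 284 and 344 for C57. All 6 h livers of SJL, SMJ and C57 lay below all 0 h livers of their strain, and the DBA groups overlapped. The mean change at 6 h was −0.39 (SE 0.08, adjusted p = 0.000185), and at 3 h it was −0.09 (adjusted p = 0.544).

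Slc25a29, a carrier of basic amino acids, rose by 0.44 at 6 h (SE 0.11, adjusted p = 0.00249), and DBA had 249.6, 323 and 244 at 6 h, against 189.7, 157 and 195 at 0 h. Slc25a13, the aspartate/glutamate carrier of liver, fell by 0.22 (SE 0.06, adjusted p = 0.0026), and its course differed between strains. The ornithine carrier Slc25a15 of the urea cycle had a log2 difference of −0.15 (adjusted p = 0.207) and the glutamate carrier Slc25a22 one of −0.29 (adjusted p = 0.167), and neither passed the test. Slc25a2, another ornithine carrier, was at 0.17 (adjusted p = 0.759), Slc25a12 at −0.07 (adjusted p = 0.633) and Slc25a48, which takes part in choline transport, at −0.27 (adjusted p = 0.666). The glycine carrier Slc25a38, needed for heme synthesis, had a difference of −0.07 (adjusted p = 0.624), and its signals lay between 155.5 and 290.3 on all arrays.

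Of the 4 carriers of glutathione and iron, 2 rose at 6 h. Slc25a39 and its relative Slc25a40 bring glutathione into mitochondria. At 0 h, Slc25a39 signals were 9892, 14440 and 11695 for SJL, 11075, 9024 and 10170 for SMJ, 10052, 10309 and 11181 for DBA, and 9109, 9414 and 11264 for C57. At 3 h, Slc25a39 had 8950.3, 11444 and 12775 for SJL, 14674, 11174 and 13750 for SMJ, 10929, 12369 and 15802 for DBA, and 13214, 10456 and 10714 for C57. At 6 h, Slc25a39 had 13507, 11302 and 14817 for SJL, 16556, 12944 and 15594 for SMJ, 15346, 16157 and 12636 for DBA, and 12544, 12793 and 14185 for C57. The 6 h livers of SMJ, DBA and C57 lay above all 0 h livers of their strain, and those of SJL overlapped. The mean change was 0.19 at 3 h (SE 0.08, adjusted p = 0.182) and 0.40 at 6 h (SE 0.08, adjusted p = 0.000383).

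The probe set of Slc25a39 can bind related transcripts. The gene's 3 other measurable probe sets had log2 differences of 0.12, 0.20 and 0.24 at 6 h, of which the last 2 were called. Those 2 can also bind related transcripts. The probe set at 0.12, also among those passed over below as able to bind other transcripts, did not pass the test. With quantile normalization the 6 h change of the chosen probe set was 0.06 (adjusted p = 0.368). Slc25a40 signals at 0 h were 55.4, 51.8 and 70.3 for SJL, 41.1, 43.2 and 31.9 for SMJ, 61.2, 68.3 and 70.6 for DBA, and 72.2, 55.5 and 73.98 for C57. At 3 h, Slc25a40 had 54.9, 67.2 and 56.1 for SJL, 19.7, 58.4 and 44.8 for SMJ, 77.9, 55.5 and 63.9 for DBA, and 63.4, 65.5 and 65.2 for C57. At 6 h, Slc25a40 had 61.3, 43.2 and 55.1 for SJL, 50.3, 9.05 and 30.1 for SMJ, 49.5, 36.96 and 38.9 for DBA, and 66.2, 81.1 and 63.1 for C57. The 6 h livers of DBA lay below those at 0 h, and the other strains overlapped. Its mean change of −0.33 at 6 h (SE 0.17, adjusted p = 0.143) did not pass the test.

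Slc25a37 is mitoferrin 1, the iron importer of developing red cells, and Slc25a28 is mitoferrin 2, its counterpart in other tissues. Slc25a37 rose by 0.56 at 6 h (SE 0.12, adjusted p = 0.000691) and Slc25a28 had a difference of −0.05 (adjusted p = 0.719). In SMJ the Slc25a37 signals were 1378, 575.7 and 580.5 at 6 h, against 316, 246 and 287 at 0 h. Erythroid markers in the same livers summed to 2094, 463 and 699.8 at 6 h, against 130.1, 121 and 125 at 0 h. Of the 2 erythroid markers measured, Alas2 was above 30.8 on 36 arrays and Epb42 on 0. With the log2 of the erythroid sum as a covariate, the SMJ change at 6 h was 0.33 (adjusted p = 0.686) in place of 1.45 (adjusted p = 0.000111).

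Of the 3 tested genes that resemble uncoupling proteins, Slc25a30 rose and Slc25a27 fell at 6 h. Slc25a27 fell by 0.66 (SE 0.17, adjusted p = 0.00377), but its other measurable probe set had a value of 0.60, of the opposite sign, that did not pass the test. Slc25a14 lay above 30.8 on 4 arrays and had a difference of −0.76 that did not pass the test (adjusted p = 0.0576).

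Among the 5 tested carriers without a settled cargo, 0 rose and 2 fell at 6 h. Slc25a47, whose cargo is debated, was counted with the cofactor carriers and not here. Slc25a46 sits in the outer mitochondrial membrane, where it takes part in fusion and fission. At 0 h, Slc25a46 signals were 1006, 999 and 876 for SJL, 937, 889 and 862 for SMJ, 1276, 1327 and 1329 for DBA, and 1395, 1221 and 1542 for C57. At 3 h, Slc25a46 had 579, 943 and 767 for SJL, 929.7, 1166 and 870.5 for SMJ, 1063, 1216 and 1121 for DBA, and 1102, 1235 and 1169 for C57. At 6 h, Slc25a46 had 806, 749.8 and 730.4 for SJL, 512, 610.3 and 478 for SMJ, 774, 859.7 and 859.6 for DBA, and 999.8, 852 and 1164 for C57. In all 4 strains each 6 h liver lay below each 0 h liver. The mean change was −0.17 at 3 h (SE 0.07, adjusted p = 0.167) and −0.55 at 6 h (SE 0.07, adjusted p = 9e-07).

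Slc25a34 is an orphan carrier. At 0 h, Slc25a34 signals were 129.8, 69.3 and 98.8 for SJL, 64.6, 98.8 and 83.8 for SMJ, 74.4, 112.8 and 68.97 for DBA, and 113.8, 139 and 109 for C57. At 3 h, Slc25a34 had 35.8, 13.03 and 68.6 for SJL, 58.2, 63.4 and 73.7 for SMJ, 57.6, 59.7 and 67.4 for DBA, and 98.4, 60.1 and 74.4 for C57. At 6 h, Slc25a34 had 46.2, 29.1 and 60.9 for SJL, 60.9, 32.5 and 74.97 for SMJ, 48.1, 97.3 and 37.8 for DBA, and 62.7, 50.7 and 93.4 for C57. All 3 h livers of SJL, DBA and C57 lay below all 0 h livers of their strain, in SJL and DBA by a narrow margin. The change was −0.72 at 3 h (SE 0.20, adjusted p = 0.0265) and −0.76 at 6 h (SE 0.20, adjusted p = 0.00403). At 3 h the adjusted p rose to between 0.051 and 0.0537 when any of 4 mice was left out, namely SJL1, SMJ57, DBA114 and C57230.

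The other 3 of these carriers had log2 differences at 6 h of −0.25 for Slc25a35 (adjusted p = 0.418), −0.06 for Slc25a45 (adjusted p = 0.782) and −0.06 for Slc25a53 (adjusted p = 0.925), and none passed the test. Slc25a35 had 3.31, 3.39 and 29.1 in DBA at 6 h, against 21.2, 28.6 and 36.03 at 0 h. Values of both times overlapped and most lay below 30.8. The DBA change of Slc25a35, −1.54, was called (adjusted p = 0.0188) and was lost without mouse DBA115, DBA166 or DBA168, with adjusted p up to 0.142.

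**Figure D3:**
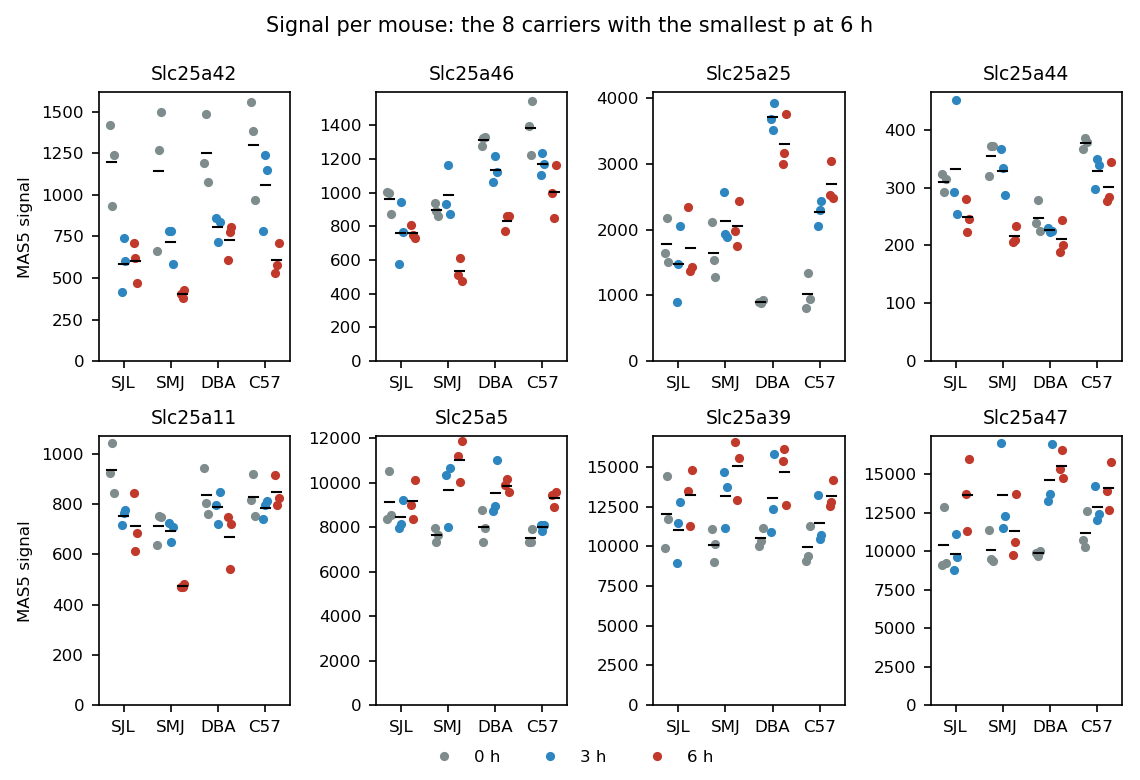
MAS5 signal of each mouse for the 8 carriers with the smallest p at 6 h, by strain, with 0 h, 3 h and 6 h from left to right and bars at group means. For Slc25a42 and Slc25a46 the 6 h points of each strain lie below all its 0 h points. For Slc25a25 only the DBA and C57 points at 3 h and 6 h lie wholly above 0 h.

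Within single strains, SMJ and C57 at 6 h held the most called carriers. At 6 h, SMJ had 31.7% of the tested carriers called, 6 higher and 7 lower, against 21.4% of all genes, 8.87% higher and 12.5% lower. C57 had 24.4% called, 4 higher and 6 lower, against 10.1% of all genes, 4.39% higher and 5.75% lower. DBA had 19.5% called, 5 higher and 3 lower, against 12.6% of all genes, 4.85% higher and 7.74% lower. SJL had 1 higher and 1 lower, or 4.88%, against 7% of all genes, 3.63% higher and 3.37% lower. At 3 h, SJL had 3 lower, or 7.32%, when 10.1% of all genes were called and 5.67% were lower. DBA had 2 higher when 1.46% of all genes were called and 1.06% were higher, C57 had 1 higher when 0.283% were called and 0.205% were higher, and SMJ had 0 when 0.205% were called. For SMJ at 3 h, 5 carriers had an unadjusted p below 0.05 in limma, and the share of all genes below it was not counted. When only the 2 groups compared were fitted, 8 calls were made at 6 h over the 4 strains in place of 33, and 2 at 3 h in place of 6. With the erythroid sum as a covariate, 17 calls were made at 6 h.

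Slc25a42 was the sole carrier called in all 4 strains at 6 h, with changes of −0.99 (SJL), −1.42 (SMJ), −0.77 (DBA) and −1.08 (C57). The SJL call was lost without mouse SJL1, SJL4 or SJL48, with adjusted p up to 0.109. Its DBA call was lost when any of 23 mice was left out, with adjusted p up to 0.18. Slc25a46 fell in 3 strains, by changes of −0.75 in SMJ, −0.66 in DBA and −0.47 in C57. The C57 call of Slc25a46 was lost without mouse C57180, C57182, C57233 or C57236, with adjusted p up to 0.191. In SJL the change of Slc25a46 was −0.33 (adjusted p = 0.18).

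**Figure D4:**
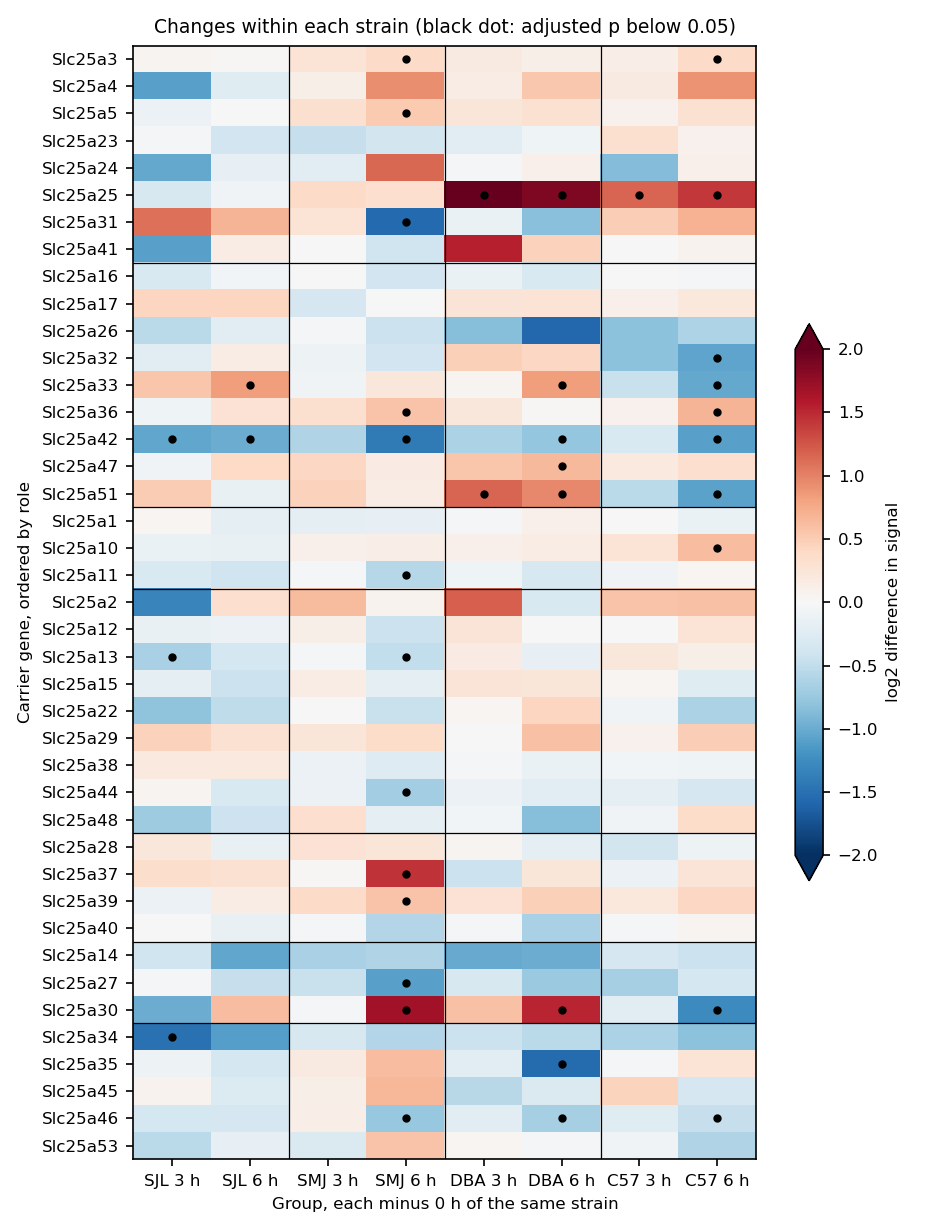
Log2 differences from 0 h of the same strain for the 41 tested carriers, ordered by role, at 3 h and 6 h in each strain. Red is higher and blue lower than 0 h, the scale ends at 2 either way, and dots mark adjusted p below 0.05. Dots stand in all 4 columns of 6 h for Slc25a42, and the DBA and C57 columns of Slc25a25 reach 2.03 and 1.41.

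The change differed between strains for 6 carriers by limma's moderated F test over the 6 interaction contrasts, or 14.6% of those tested, when 8.04% of all genes were called. They were Slc25a30, Slc25a25, Slc25a13, Slc25a33, Slc25a51 and Slc25a37. Slc25a30 had the smallest adjusted p, 0.000669. It resembles uncoupling proteins and has been described in kidney mitochondria. Slc25a30 in SJL had 822, 676 and 892 at 0 h, 216, 530.0 and 544 at 3 h, and 1229, 1431 and 1024 at 6 h. In SMJ, Slc25a30 had 749, 1408 and 1884 at 0 h, 1232, 1625 and 935 at 3 h, and 3634, 5886 and 3113 at 6 h. All 6 h livers of both strains lay above all of their 0 h livers. In DBA, Slc25a30 had 1520.4, 1949 and 1298 at 0 h, 2112, 2437 and 2546 at 3 h, and 3934, 5909 and 3939.9 at 6 h. In C57, Slc25a30 had 1388, 959 and 1502 at 0 h, 936, 1268 and 1078 at 3 h, and 511, 357 and 768 at 6 h. The DBA livers at 6 h were above, and the C57 livers at 6 h below, all 0 h livers of their strain. The 6 h changes were 1.69 in SMJ (adjusted p = 0.000762), 1.52 in DBA (adjusted p = 0.0035), 0.62 in SJL (adjusted p = 0.324) and −1.27 in C57 (adjusted p = 0.0156). The call in C57 was lost without mouse C57180 or C57182 at 0 h, or C57236 at 6 h, with adjusted p up to 0.116. Its 3 other measurable probe sets were also called higher at 6 h in the mean, by 0.77 to 1.04.

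Slc25a25, with an adjusted p of 0.000952 in the same test, rose in DBA by 2.03 at 3 h and 1.86 at 6 h, and in C57 by 1.17 and 1.41. Its log2 differences were 0.39 and 0.33 in SMJ, and −0.33 and −0.08 in SJL, and none of these 4 passed the test. The C57 call at 3 h was lost without any of 5 C57 mice, with adjusted p up to 0.182.

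Slc25a13, citrin, passes aspartate to the cytosol for the urea cycle. Its adjusted p for a difference between strains was 0.00194. Slc25a13 in SJL had 2836, 3191 and 3126 at 0 h, 1742, 1977 and 2148 at 3 h, and 2576, 2271 and 2344 at 6 h. In SMJ, Slc25a13 had 2321, 2665 and 2718 at 0 h, 2272, 2605 and 2704 at 3 h, and 1968, 1923 and 1585 at 6 h. The SJL livers at 3 h and 6 h and the SMJ livers at 6 h lay below all 0 h livers of their strain. In DBA, Slc25a13 had 2504, 2609.5 and 2454 at 0 h, 2872, 2686 and 2939 at 3 h, and 2032, 2250 and 2457 at 6 h. In C57, Slc25a13 had 2252, 2567 and 1957 at 0 h, 2414, 2742 and 2718 at 3 h, and 2336, 2421 and 2566 at 6 h. All 3 h livers of DBA lay above its 0 h livers, and the C57 groups overlapped. The change was called at 3 h in SJL, at −0.64 (adjusted p = 0.000376), and at 6 h in SMJ, at −0.49 (adjusted p = 0.00203).

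Slc25a33 carries pyrimidine nucleotides, as Slc25a36 does. Its adjusted p for a difference between strains was 0.0029. Slc25a33 in SJL had 998, 821 and 806 at 0 h, 913, 1738 and 1318 at 3 h, and 1801, 1690.2 and 1232 at 6 h. In SMJ, Slc25a33 had 755, 1326 and 1345 at 0 h, 882, 1281 and 1032 at 3 h, and 1209, 1265 and 1397 at 6 h. The SJL livers at 6 h lay above all 0 h livers of the strain, and the SMJ groups overlapped. In DBA, Slc25a33 had 913, 870.4 and 769 at 0 h, 888, 873 and 889 at 3 h, and 1326, 2049 and 1298 at 6 h. In C57, Slc25a33 had 1175, 1272 and 1587 at 0 h, 871, 1059 and 1013 at 3 h, and 656, 558 and 755 at 6 h. The DBA livers at 6 h lay above all their 0 h livers, and the C57 livers at 3 h and 6 h below all of theirs. The 6 h changes were 0.83 in SJL (adjusted p = 0.0208), 0.84 in DBA (adjusted p = 0.0126), 0.22 in SMJ (adjusted p = 0.546) and −1.03 in C57 (adjusted p = 0.00314). Without mouse SJL2, SJL4, SJL44 or SJL45 the SJL call was lost (adjusted p up to 0.0926), and without mouse DBA115 or DBA168 the DBA call was lost (adjusted p up to 0.111).

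Slc25a51 brings NAD into the matrix, and its adjusted p for a difference between strains was 0.012. Slc25a51 in SJL had 633, 927 and 521 at 0 h, 810.2, 1437 and 751 at 3 h, and 629.9, 598 and 602 at 6 h. In SMJ, Slc25a51 had 799.6, 905 and 561 at 0 h, 1042, 1039.8 and 996 at 3 h, and 747, 769 and 979 at 6 h. All SMJ livers at 3 h lay above those at 0 h, and the other groups of both strains overlapped. In DBA, Slc25a51 had 390.1, 459 and 464 at 0 h, 875, 1091 and 978 at 3 h, and 596, 1026 and 999.9 at 6 h. In C57, Slc25a51 had 2109, 1696 and 2305 at 0 h, 1298, 1754 and 1174 at 3 h, and 657, 1016 and 1315 at 6 h. The dosed DBA livers lay above all 0 h livers of the strain at both times, and the C57 livers at 6 h below all of theirs. Slc25a51 rose in DBA by 1.16 at 3 h and 0.96 at 6 h, and fell in C57, by a change of −1.08 at 6 h (adjusted p = 0.00733). The DBA call at 3 h was lost without mouse DBA113, DBA159 or DBA160 (adjusted p up to 0.0972) and that at 6 h without mouse DBA113, DBA168 or DBA169 (adjusted p up to 0.0871). The C57 call was lost without mouse C57233 (adjusted p = 0.0717). The mean change of Slc25a51 at 6 h was −0.03, and 2 dimmer probe sets of the gene were called higher, by 0.42 and 0.47.

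For Slc25a37 the adjusted p for a difference between strains was 0.0349, and leaving out any of 9 mice ended the call. Without mouse SMJ101 at 6 h, the brightest, it was 0.0775, and with the erythroid sum as a covariate it was 0.145. Between 3 h and 6 h, the mean difference of Slc25a37 was 0.60 (adjusted p = 0.00102), and 0.35 with that covariate (adjusted p = 0.056).

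**Figure D5:**
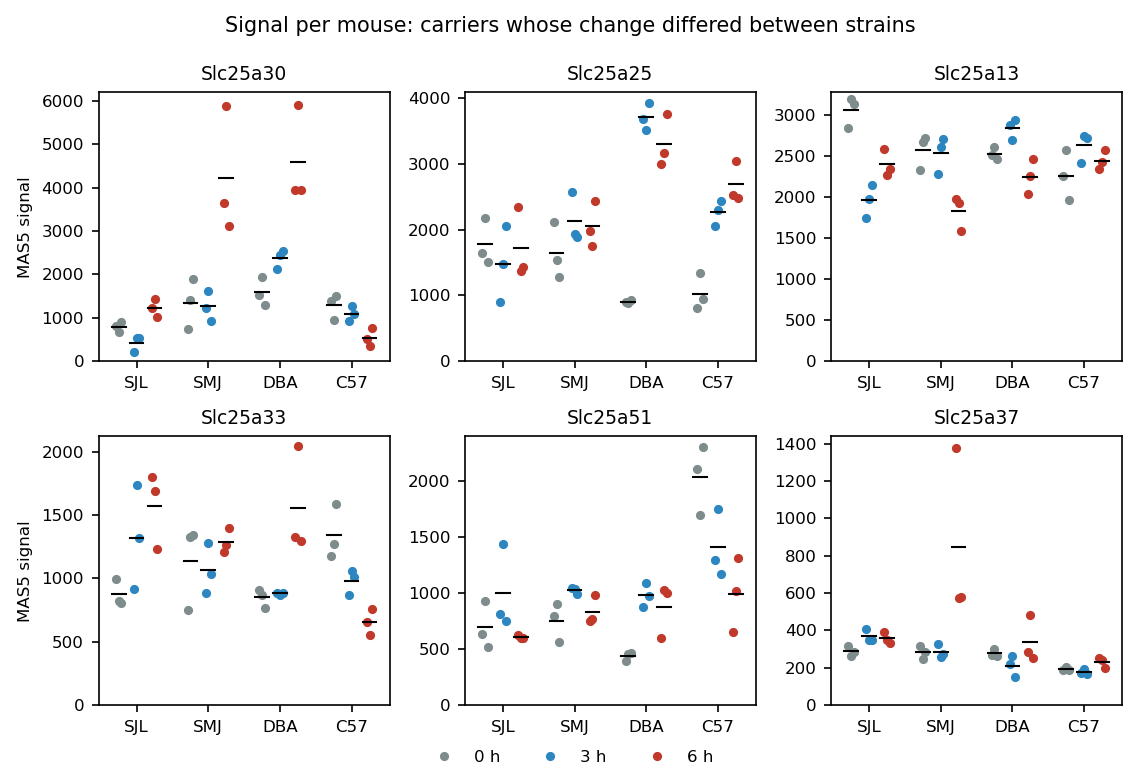
MAS5 signal of each mouse for the 6 carriers whose change differed between strains, with 0 h, 3 h and 6 h from left to right in each strain and bars at group means. The 6 h points of Slc25a30 lie between 3113 and 5909 in SMJ and DBA and between 357 and 768 in C57.

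The series sets SJL apart as resistant, so SJL was also set against the average of the other 3. At 3 h, 2 carriers changed otherwise in SJL than in the other strains, or 4.88% of those tested, when 4.63% of all genes were called and 2.49% were lower. Without mouse SJL42 or SMJ56 the count was 4. The 3 h change of Slc25a25 was lower in SJL, with a log2 difference of −1.52 (SE 0.28, adjusted p = 0.0021), and Slc25a13 had a difference of −0.77 (SE 0.13, adjusted p = 0.000757). At 6 h, Slc25a25 alone was called, when 0.248% of all genes were and 0.0496% were lower, with a difference of −1.28 (SE 0.28, adjusted p = 0.0482). That call was lost when any of 26 mice was left out, with adjusted p up to 0.188, and with each of the 3 marker sums as a covariate. An unadjusted p below 0.05 was reached by 7 carriers in this comparison, and the share of all genes that reached it was not counted.

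Before the dose, 16 of the 41 tested carriers differed between strains by the F test, when 26.5% of all genes did. The share was 39% of the carriers tested. It counts Slc25a31, for which a difference had to follow from the filter, as told below. It also counts Slc25a15 (adjusted p = 0.0493 in the F test), whose call was lost without any of 27 mice. Slc25a51 had the smallest adjusted p, 3.47e-06, with 0 h signals of 2109, 1696 and 2305 in C57 and 390.1, 459 and 464 in DBA, and those of SJL and SMJ between. Slc25a31, an ADP/ATP carrier of sperm, followed with 5.74e-05. Its 0 h signals were 0.291, 1.41 and 0.956 for SJL, 4.5, 13.5 and 6.54 for SMJ, 35.3, 25.4 and 45.03 for DBA, and 1.21, 2.46 and 0.931 for C57. At 3 h, Slc25a31 had 8.25, 0.525 and 10.2 for SJL, 9.65, 13.8 and 6.59 for SMJ, 63.5, 22.9 and 20.04 for DBA, and 8.82, 1.51 and 1.55 for C57. At 6 h, Slc25a31 had 2.44, 7.36 and 0.897 for SJL, 0.401, 0.759 and 1.04 for SMJ, 20.7, 17.3 and 16.7 for DBA, and 2.41, 1.08 and 13.5 for C57. Every DBA liver was above every liver of the other strains at 0 h, and since the gene was tested only because of DBA arrays above 30.8, a difference between strains had to follow. Slc25a31 was also called lower in SMJ at 6 h (adjusted p = 0.0309), where all its signals lay below 30.8 at both times, and that call was lost without any of 5 mice.

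Slc25a17 carries coenzyme A, FAD and related cofactors in the peroxisomal membrane. At 0 h, Slc25a17 signals were 104, 106 and 153 for SJL, 168.5, 212 and 202 for SMJ, 170.4, 134 and 183 for DBA, and 247, 259 and 329 for C57. At 3 h, Slc25a17 had 205, 129 and 162 for SJL, 129, 126 and 218 for SMJ, 183, 208 and 191 for DBA, and 292, 273 and 331 for C57. At 6 h, Slc25a17 had 172, 139 and 174 for SJL, 205, 171 and 202 for SMJ, 203, 180.3 and 205 for DBA, and 369.7, 266 and 327 for C57. C57 livers were above all other livers at 0 h, and SJL livers lay lowest with some overlap with DBA. The adjusted p at 0 h was 0.000381.

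Slc25a32 carries folate and FAD. Slc25a32 in SJL had 166.4, 295 and 253 at 0 h, 177, 201 and 220.4 at 3 h, and 291, 299 and 195 at 6 h. In SMJ, Slc25a32 had 215, 369 and 253 at 0 h, 314, 242 and 213 at 3 h, and 207, 203 and 212 at 6 h. SMJ livers at 6 h lay below all 0 h livers of the strain, and the other times overlapped with 0 h in both strains. In DBA, Slc25a32 had 126, 193 and 195 at 0 h, 253, 247 and 204 at 3 h, and 229.8, 271 and 182.2 at 6 h. In C57, Slc25a32 had 407.8, 333 and 657 at 0 h, 225, 248 and 283 at 3 h, and 229.8, 169.9 and 253 at 6 h. DBA livers at 3 h lay above, and C57 livers at 3 h and 6 h below, all 0 h livers of the strain, and at 0 h the C57 livers overlapped with SMJ alone. The adjusted p between strains at 0 h was 0.00112, and the C57 change at 6 h was −1.05 (adjusted p = 0.00669). That change was lost without mouse C57182 or C57236, with adjusted p up to 0.0671. Of the gene's 2 dimmer probe sets, 1 fell in the mean at 6 h by 0.79 and the other had a value of −0.27, where the one used had −0.22, and neither of these values passed the test.

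At 0 h, SJL had 4 carriers higher and 2 lower than the average of the other 3 strains, or 14.6% of those tested, when 12.4% of all genes were called, 6.55% higher and 5.84% lower. Slc25a23 was 1.03 higher, Slc25a12 and Slc25a25 0.63 higher each, and Slc25a13 0.32 higher on the log2 scale. Slc25a23 signals were 1291, 896 and 1245 for SJL, against 403.1, 705 and 821 for SMJ, 633, 635 and 657 for DBA and 563, 525 and 262 for C57. Slc25a12, the aspartate/glutamate carrier of muscle and brain, had 454, 489.7 and 369.8 for SJL, against 318, 243 and 237.3 for SMJ, 228, 249 and 254 for DBA and 408.1, 307 and 329 for C57. The Slc25a23 signals of SJL lay above all others, and 1 SJL liver overlapped with C57 for Slc25a12. Slc25a17 was lower in SJL by a log2 difference of −0.77. Slc25a31 was also called lower and counts among the 6, but it was tested only through DBA arrays and all its SJL signals at 0 h lay far below 30.8, so no size is given. Leaving out mouse SJL2 left 3 called and ended the call of Slc25a12 (adjusted p = 0.0614) and of Slc25a13 (adjusted p = 0.11), leaving out mouse SJL4 that of Slc25a13 (adjusted p = 0.0921), SJL1 that of Slc25a31 (adjusted p = 0.0573), and any of 9 mice that of Slc25a25.

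Other genes that serve mitochondria were set beside the carriers, and of all genes 12.7% were called higher and 20.3% lower at 6 h. Of 13 regulators of mitochondrial biogenesis, 1 rose and 6 fell at 6 h, with a median change of −0.27 on the log2 scale, against −0.05 over all genes. Gabpa, an ETS factor that activates respiratory genes, fell by 0.59 (adjusted p = 2.74e-09), Tfam, which packs and transcribes mitochondrial DNA, fell by 0.28 (adjusted p = 5.43e-05), and Pprc1, a coactivator, rose by 0.60 (adjusted p = 0.00012). Of 14 genes that import carrier proteins into mitochondria, 1 rose and 2 fell. Timm9, a chaperone of the intermembrane space that guides carriers, fell by 0.66 (adjusted p = 8.53e-06), Tomm20, a receptor of the outer membrane, rose by 0.40 (adjusted p = 0.000212), and Tomm22 fell by 0.17 (adjusted p = 0.0135). Of 18 mitochondrial transporters without Slc25a names, 0 rose and 3 fell: Sfxn2 by 0.35, Abcb10 by 0.51 and Abcb6 by 0.20. At 3 h, 2, 1 and 0 genes of these lists were called, all lower, when 4.02% of all genes were.

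Agreement between probe sets could be followed for 22 symbols with more than 1. Of 39 other probe sets above the same limit, 33 had the sign of the chosen one in the mean change at 6 h. Of the 30 that belonged to called carriers, 16 were called in the same direction and 0 in the other.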

How the data were processed

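Liver RNA of 36 mice carried a biotin label and went onto Affymetrix arrays read in 1 colour, 1 per mouse. The deposited values are intensity values, MAS5 signals per probe set per the submitters' processing notes. Its version is not given in the sources used here. The method sets perfect-match probes against mismatch partners. Each array's mean, with 2% trimmed at each end, was 150, so the values were used as deposited.

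The log2 of signal plus 2.77, the 10th percentile of all values, was taken. Group means of the 12 strain and time groups were fitted by limma 3.58.1 (R 4.3.3) over the 36 arrays together, with 24 residual degrees of freedom. P-values are two-sided, with Benjamini-Hochberg adjustment over 14115 genes and a threshold of 0.05. Calls of probe sets other than the chosen ones came from a separate fit of all probe sets past the same limit. There the adjustment was over those probe sets. Of 45101 probe sets, 34945 carried 1 symbol. Nothing in the labels says that the 3 mice of a group were handled apart, so p-values measure the spread between these samples. Precision is limited by the number of arrays. The labels give no batch.

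The members and gene lists were chosen with earlier results of these data known. Values of every mouse are given for the 8 carriers with the smallest p at 6 h, the 4 at 3 h, the 4 in each F test, Slc25a39 and Slc25a40, and in the other lists the 3 genes with the smallest p at 6 h are named. Other offsets (1 and 16), filters, scalings, probe set rules, fits and samples were tried. The marker sums as covariates were added after seeing the data. The fit was tested on simulated data. Promoter windows were searched in Python 3.11.15.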

Additional observations from a re-analysis of the deposited data

Results flagged for a closer look

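For 6 carriers the response to acetaminophen differed between the strains by limma's moderated F test of the 6 interaction contrasts, which is what marked them for a closer look. The adjusted p was 0.000669 for Slc25a30, 0.000952 for Slc25a25, 0.00194 for Slc25a13, 0.0029 for Slc25a33, 0.012 for Slc25a51 and 0.0349 for Slc25a37. C57 at 6 h moved downward in Slc25a30, Slc25a33 and Slc25a51, each of which was called higher in DBA at 6 h. No group held more than 3 mice, so no single mouse was tested as an outlier.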

How the results depend on the processing

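Among the calls of single genes, 61 were kept without each of the 36 mice in turn and 41 were lost without at least 1, and 0 changed sign. Without 1 mouse, the carriers called ranged from 2 to 6 at 3 h, 17 to 21 at 6 h, 6 to 11 between 3 h and 6 h, 4 to 9 within strains at 3 h and 28 to 38 within strains at 6 h. They ranged from 3 to 9 for SJL at 0 h, 2 to 4 and 0 to 1 for its 3 h and 6 h changes, 5 to 8 for a strain-dependent change and 13 to 18 between strains at 0 h. The 6 h difference of SJL gave 0 calls with no filter on low signals, with the mean of all probe sets, and with the muscle, pancreas or erythroid sum as a covariate. The mean of all probe sets gave 5 calls between 3 h and 6 h and 3 for SJL at 0 h. A fit of only the 2 groups compared gave 2 calls within strains at 3 h and 8 at 6 h. With the muscle sum as a covariate 3 carriers were called between 3 h and 6 h, and with the erythroid sum 4, along with 2 at 3 h and 17 within strains at 6 h. Quantile normalization turned the 6 h change of Slc25a3 to −0.013 and of Slc25a5 to −0.011 in the mean, and in SMJ gave −0.070 for Slc25a3, −0.12 for Slc25a39 and −0.025 for Slc25a5. Passing over probe sets that can bind other transcripts gave −0.36 for Slc25a3 in C57 at 6 h. Slc25a3 was then read by a probe set with a mean signal of 37.7, in place of that with 6609. The mean of all probe sets gave 0.035 for Slc25a27. That average takes in a probe set with a mean change of 0.60 at 6 h, where the chosen probe set had −0.66. Beyond these changes of probe sets for Slc25a3 and Slc25a27, the cause of the shifts was not tested. No paired analysis was possible because each mouse has a number of its own. Carriers near the floor, such as Slc25a31, Slc25a35 and Slc25a2, are limited by signal over background.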
